A study of Mus musculus with 8 samples.

Results

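The ETS family is a group of transcription factors that share 1 type of DNA-binding domain and bind sites around a GGAA core. The 10 genes described here are Spi1, Spib, Spic, Elf1, Elf4, Ets1, Ets2, Etv6, Elk3 and Gabpa. They were taken by name, and all 10 were found among the 37980 gene rows of the table. RNA was sequenced from multipotent progenitors (MPPs) of mouse bone marrow, which are early cells that can give rise to every blood lineage, in 4 NA MPP and 4 WT MPP libraries of 1000 sorted cells each. The gate was Lin-, CD48-, ckit+, Sca1+, CD135+ and CD150-, and the strain was C57BL/6. NA mice carried 1 conditional allele of the Nup98-Hoxa10hd fusion gene in the Rosa26 locus together with Vav-Cre, which is active in blood cells generally and is not limited to MPPs. The study used C57BL/6 mice of more than 1 CD45 type and did not say which gave the sequenced WT MPPs. It described WT mice of matched age for a cell cycle assay only. Whether the WT donors carried Vav-Cre was not stated in the sources used here. Ages were not given, and nothing said whether the 4 aliquots of a group came from separate mice, so p-values measure the spread between aliquots. Libraries are named by group and number, as in NA1.

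PU.1, the product of Spi1, is needed for myeloid and B cell development, and its level helps to set the choice between lineages. Spib and Spic are its nearest relatives. Spib acts in B cells and plasmacytoid dendritic cells, and Spic is known for red pulp and bone marrow macrophages that recycle iron from haem. Etv6 is required for blood stem cells to persist in adult bone marrow, and Gabpa binds DNA as part of the GABP complex and is needed for stem cell survival.

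The unit is the normalised count, an RSEM gene count that the authors had divided by a factor for each library. Estimated depth was 3877029 to 3960810 reads in NA4, WT2 and WT3 and 4779422 to 4916903 reads in the other 5 libraries. Genes of the gate were abundant in every library, with Kit from 1103 to 1490 and Flt3 from 1274 to 1498 normalised counts. Of 7 such genes, 2 were lower in NA MPPs with no overlap. Over all tested genes 7.87% were called lower and 22.0% had groups that did not overlap, so this count is no result about the gate genes as a set. The 2 were Ly6a, which encodes Sca1, at 1277 ± 88.5 against 1548 ± 63.3 (SD, n = 4 per group, limma adjusted p = 0.0257), and Cd48, which the gate selects against, at 17.7 ± 5.36 against 56.1 ± 21.3 (SD, n = 4 per group, limma adjusted p = 0.00711). The B cell markers Pax5 and Ms4a1 and the T cell markers Cd3e and Cd8a were at 0 in all libraries. The fourth libraries lay nearer the middle of their groups than the others. Their spread around the mean of the other 3 libraries of the group, in log2 units over 4766 genes, was 0.174 in NA4 and 0.117 in WT4, against 0.189 to 0.26 in the other 6. WT4 was the lowest of its group for 12.0% of tested genes and the highest for 12.8%, and NA4 for 15.8% and 16.4%, where each of the other 6 libraries was lowest for 25.8% to 30.9% and highest for 23.9% to 32.2%. Whether NA4 and WT4 are independent aliquots was not stated. If they are not, n = 4 and the SDs and p-values that rest on it overstate the precision, and without both the number of genes called fell from 2053 to 515. Values without the fourth libraries are therefore given beside calls for ETS genes and for their partners and targets. Xist, which silences an X chromosome in female cells, was at 0.94 to 2.8 normalised counts in NA MPPs and 869 to 1285 in WT MPPs, and Y-linked Eif2s3y was at 516 to 667 and 0 to 0.888. Sex-linked transcripts thus differed with genotype, and the sex of the donors and the fusion cannot be told apart.

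Of the 10 ETS genes, 9 entered the test and only Spic passed it, lower in NA MPPs. Each gene was tested with limma on log2(normalised count + 1), where a gene had to reach 10 normalised counts in at least 4 libraries and p-values were adjusted by Benjamini-Hochberg over all 11451 genes tested. A gene that is low in 1 group could thus enter through the 4 libraries of the other group. The same test called 17.9% of all tested genes, made up of 10.1% higher and 7.87% lower in NA MPPs. The groups did not overlap for 1 of the 9 ETS genes, again Spic, against 22.0% of all tested genes. The median log2 difference was 0.01 over the 9 genes and -0.01 over all tested genes. Scaling by the total count moved the share of higher genes among all called genes from 56.1% to 41.3%, and Spic was still the only member called.

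**Figure D1:**
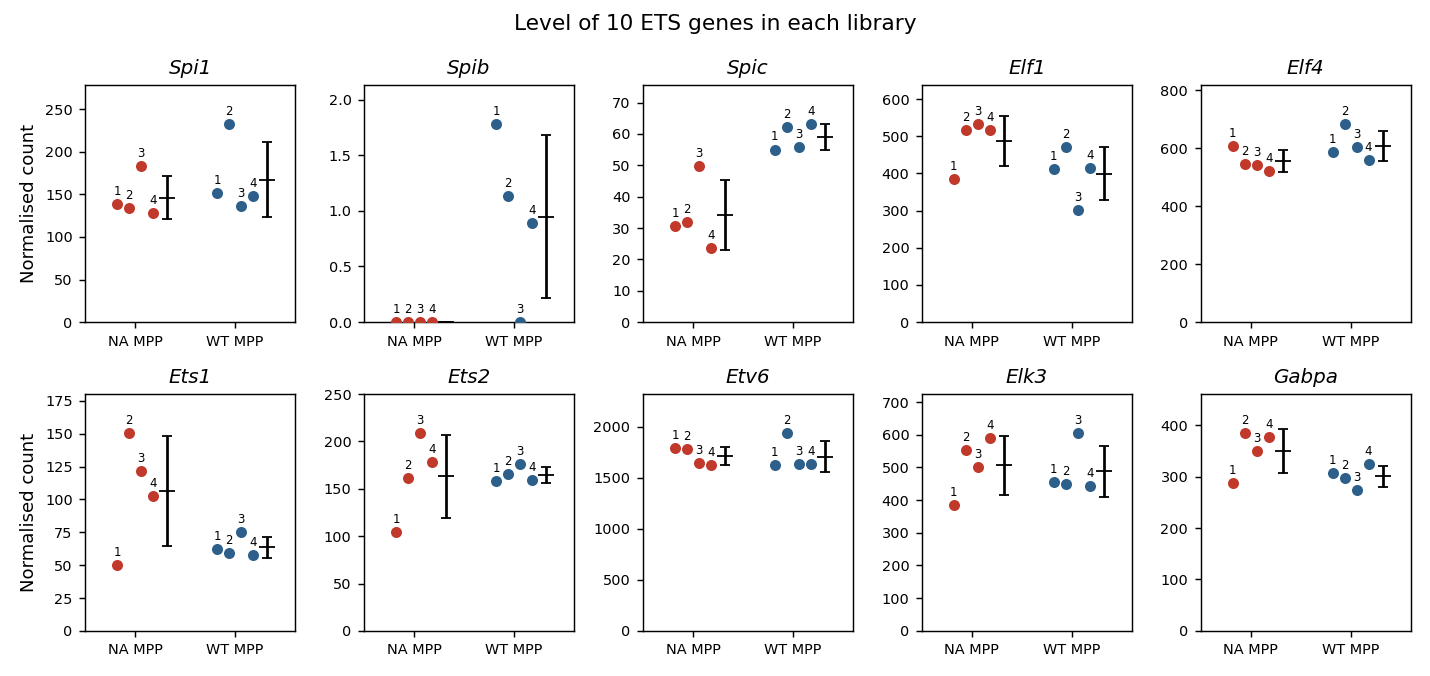
Normalised counts of the 10 ETS genes (y axis, from 0, a separate scale for each gene) in the 4 NA MPP (red) and 4 WT MPP (blue) libraries. Points are libraries with their number, and bars are the mean and SD of 4. Spic is the only gene tested whose groups do not overlap, and NA1 lies lowest of its group for Elf1, Ets1, Ets2, Elk3 and Gabpa.

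Spic (ENSMUSG00000004359) lies on chromosome 10 at 88674772 to 88685015 on the minus strand of mm10. Its values were 30.8, 31.96, 49.9 and 23.6 normalised counts in NA1 to NA4 and 55.0, 62.3, 55.8 and 63.0 in WT1 to WT4. All 4 NA libraries were below all 4 WT libraries, and NA3 came nearest to them. The mean fell from 59.0 ± 4.21 in WT to 34.1 ± 11.2 in NA MPPs (SD, n = 4 per group). The NA minus WT difference on the log2 scale was -0.82, its standard error 0.27 and its 95% interval -1.40 to -0.25 (limma adjusted p = 0.048). No library held more than 71 estimated reads of Spic. The call was lost without the fourth libraries, at -0.64 (limma adjusted p = 0.335), and on leaving out any single library except NA3, with limma adjusted p between 0.0682 and 0.151. The study had listed Spic among the factors that changed in these libraries, so its direction is not independent evidence.

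The sequence before the start of Spic is shown because it is the only ETS gene here past the threshold. RefSeq gave promoter windows for 8 of the 10 genes in build GRCm38.p6. The 250 bases before the Spic start, at chr10:88683024-88683273 on the minus strand, are printed 5′ to 3′, with the match to the ETS core on the opposite strand (TTCC) in capitals. GENCODE M21 places this stretch in an intron of Spic, since it also holds a longer transcript that starts further upstream.
Spic: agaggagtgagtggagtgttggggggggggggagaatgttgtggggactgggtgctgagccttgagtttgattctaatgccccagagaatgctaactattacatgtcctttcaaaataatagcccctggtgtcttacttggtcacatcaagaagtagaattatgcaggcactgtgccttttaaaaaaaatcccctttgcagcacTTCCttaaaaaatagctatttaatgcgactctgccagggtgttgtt
The core GGAA was searched on both strands of the whole windows, which add 50 bases after the start. It had 2 matches in the window of Spic, 8 in that of the upstream start of Elf4 and 6 in that of Etv6, and at least 1 in 96.0% of all 32851 windows. The longer PU.1 type site GAGGAAGT, which includes that core, was found in the window of Gabpa and of no other member, and in 3.20% of all windows. The site CCGGAAGT, which also includes the core, was in none of the members' windows and in 3.89% of all windows.

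Spi1 (ENSMUSG00000002111, chromosome 2, 91082390 to 91115756, plus strand), which encodes PU.1, was at 139, 134, 184 and 128 normalised counts in NA1 to NA4 and 152, 232, 137 and 148 in WT1 to WT4. The groups overlapped, and WT2 lay above all other libraries. Means were 146 ± 25.5 and 167 ± 43.8 (SD, n = 4 per group), and the log2 difference of -0.17 was not past the threshold (limma adjusted p = 0.553). The 95% interval ran from -0.58 to 0.23, a fold of 0.67 to 1.17. Without WT2 the log2 difference was -0.0072. Spib (ENSMUSG00000008193, chromosome 7, 44525993 to 44532071, minus strand) was at 0 in every NA library and at 1.78, 1.13, 0 and 0.888 normalised counts in WT1 to WT4, which is at most 2 estimated reads in a library. It was too low for the fit, its group difference gave an exact two-sided permutation p of 0.143, and a count of 0 allows up to 3 reads in each library, so no difference was detectable at this depth.

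Elf1 and Elf4 belong to the ELF branch. Elf4 is known to draw blood stem cells out of quiescence, and Elf1 acts in lymphoid and blood vessel cells. Elf1 (chromosome 14, 79481194 to 79582494) was at 386, 516, 532 and 516 normalised counts in NA1 to NA4 and 411, 470, 301 and 415.5 in WT1 to WT4. Of the NA libraries, 3 lay above every WT library and NA1 below the WT mean. The means of 487 ± 68.3 and 399 ± 71.0 (SD, n = 4 per group) gave a log2 difference of 0.29 with an interval from -0.02 to 0.61 (limma adjusted p = 0.177). Elf4 lies on the X chromosome (48411046 to 48463132), and its groups overlapped at 609, 544, 543 and 522 normalised counts in NA1 to NA4 and 588, 682, 605 and 558 in WT1 to WT4. Its log2 difference was -0.13 with an interval from -0.34 to 0.08 (limma adjusted p = 0.375), beside the Xist values given above, whose part in this difference was not tested.

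Ets1 is best known in lymphocytes, and Ets2 is activated by MAP kinase signalling. Ets1 (ENSMUSG00000032035, chromosome 9, 32636221 to 32757820, plus strand) had the widest spread of the tested members in NA MPPs, with a coefficient of variation of 39.6% against 12.6% in WT MPPs. Its values were 50.4, 150, 122 and 103 normalised counts in NA1 to NA4 and 62.1, 58.9, 75.1 and 57.7 in WT1 to WT4. NA1 was below every WT library and NA2, NA3 and NA4 were above every one. With all libraries the log2 difference of 0.64 (standard error 0.286, interval from 0.03 to 1.25) was not past the threshold (limma adjusted p = 0.138). Without NA1 it was 0.96 and passed (limma adjusted p = 0.00779), the only case in which a member other than Spic was called, and without NA2 it was 0.44 (limma adjusted p = 0.340). Ets2 (chromosome 16, 95702075 to 95721051) was at 105, 162, 209 and 178 normalised counts in NA1 to NA4 and 158, 165, 176 and 159 in WT1 to WT4. The WT values lay within the range of the NA values, and the coefficient of variation was 26.8% in NA against 5.16% in WT MPPs. Its log2 difference was -0.05 (limma adjusted p = 0.874) and turned to 0.14 without NA1.

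Etv6 (ENSMUSG00000030199, chromosome 6, 134035700 to 134270158, plus strand), a repressor whose human gene is broken in several leukaemias, had the highest counts of the 10 and the narrowest spread in NA MPPs. It was at 1794, 1777, 1645 and 1623 normalised counts in NA1 to NA4 and 1624, 1935, 1630 and 1634 in WT1 to WT4. The groups overlapped fully apart from the high value of WT2. The log2 difference was 0.01 with an interval from -0.17 to 0.18 (limma adjusted p = 0.969), and its sign turned under scaling by the total count (-0.06), so the data bound the difference at a fold of 0.888 to 1.13. Elk3 encodes a ternary complex factor, which binds DNA beside serum response factor and represses until phosphorylated. Elk3 (chromosome 10, 93247414 to 93311135) was at 384, 553, 501 and 591 normalised counts in NA1 to NA4 and 455, 448.5, 605 and 442 in WT1 to WT4, with the lowest library in NA and the highest in WT MPPs. Its log2 difference was 0.05 (limma adjusted p = 0.842), turning to -0.02 under scaling by the total count and to -0.07 without the fourth libraries. Gabpa (chromosome 16, 84834925 to 84863779) was at 288, 384, 350 and 377 normalised counts in NA1 to NA4 and 306, 297, 274 and 324 in WT1 to WT4. The NA libraries other than NA1 lay above every WT library, and the log2 difference was 0.21 with an interval from -0.05 to 0.47 (limma adjusted p = 0.240). Strand use in counting was not stated, and exons of Elk3 share 6.95% of their bases with Cdk17 on the opposite strand, those of Gabpa 6.98% with Atp5j, those of Elf1 4.85% with Wbp4 and those of Etv6 2.26% with Gm17089, so reads there cannot be told apart.

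NA1 was the lowest NA library for 5 of the 9 tested members, namely Elf1, Ets1, Ets2, Elk3 and Gabpa, where it was lowest for 29.1% of all tested genes. It was the highest for Elf4 and Etv6. In WT MPPs, WT2 was the highest for Spi1, Elf1, Elf4 and Etv6, where it was highest for 32.2% of all tested genes.

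Levels of different genes were compared per kilobase of transcript, as the mean normalised count in WT MPPs over the median length of the coding transcripts of a gene. Elk3 at 365 ± 58.5, Etv6 at 308 ± 27.6 and Spi1 at 307 ± 80.5 per kilobase came first and lay within each other's spread (SD, n = 4 per group). Elf4 at 104 ± 9.01 and Elf1 at 103 ± 18.3 followed without a difference beyond their spread, then Gabpa at 83.6 ± 5.76, Ets2 at 68.3 ± 3.53, Spic at 49.0 ± 3.49 and Ets1 at 31.1 ± 3.92 per kilobase (SD, n = 4 per group). Spib came last at 1.11 ± 0.862. Over the longest coding transcript Etv6 stood alone at 299, with Elk3 at 116 and Spi1 at 82.2 per kilobase in WT MPPs. The order thus depends on the transcript that is taken.

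The other ETS genes were examined for comparison. Of 16 found, 9 were tested, 3 were higher in NA MPPs and none was lower, beside 10.1% higher and 7.87% lower over all tested genes. Fli1, a stem cell and megakaryocyte factor, was at 397, 484, 450 and 535 normalised counts in NA1 to NA4 and 242, 220, 225 and 257 in WT1 to WT4. Its groups lay far apart, with a log2 difference of 0.98 (standard error 0.12, limma adjusted p = 0.000108), and it passed without the fourth libraries at 0.95 (limma adjusted p = 0.0037). Etv3, a repressor, rose by 0.70 (limma adjusted p = 0.0114) and Elf2, a relative of Elf1, by 0.36 (limma adjusted p = 0.0341), but neither passed without the fourth libraries (0.085 and 0.256). Erg, the closest relative of Fli1, was at 491 ± 42.8 and 422 ± 47.1 normalised counts (SD, n = 4 in each group, limma adjusted p = 0.182), and the lowest value was that of Elk1 at -0.30 (limma adjusted p = 0.527). Fev, Elf3, Ehf, Etv2 and Spdef were listed at 0 in every library, and Etv4 and Elf5 reached at most 3 and 5 estimated reads.

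**Figure D2:**
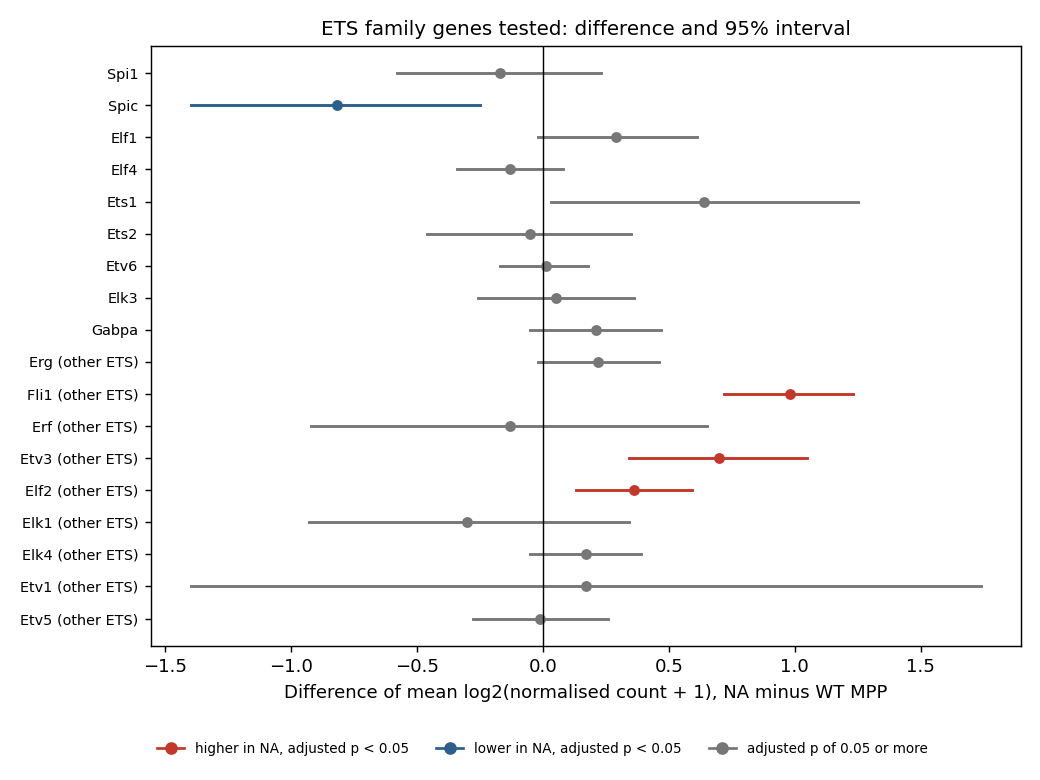
Difference of mean log2(normalised count + 1) between NA and WT MPPs (x axis) for the 18 ETS genes tested, with limma 95% intervals from 4 libraries in each group. Blue marks a gene lower and red a gene higher in NA MPPs at an adjusted p below 0.05. Spic lies left of 0 at -0.82, and Fli1, Etv3 and Elf2 lie right of it.

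Spic was set beside genes of red pulp macrophages, where it acts. Of 14 such genes 7 were tested and 2 passed, both lower in NA MPPs, beside 7.87% lower over all tested genes. Slc40a1, the iron exporter ferroportin, was at 6.53, 14.1, 25.9 and 24.8 normalised counts in NA1 to NA4 and 31.96, 47.6, 60.3 and 33.7 in WT1 to WT4 (log2 difference -1.36, limma adjusted p = 0.0391). Cd163, a receptor for haemoglobin complexes, was at 5.84 ± 0.864 and 17.6 ± 5.34 (SD, n = 4 in each group, a log2 difference of -1.41, limma adjusted p = 0.0471). All 4 NA values of both genes were below all WT values. Without the fourth libraries Slc40a1 was at -1.67 and did not pass (limma adjusted p = 0.0942). Cd163 could not be tested there, at 15.1, 24.9 and 12.5 normalised counts in WT1 to WT3. Fewer WT libraries remained than the 4 that the filter asks for, so its absence says nothing about its level. Vcam1 had the lowest log2 difference of the list, -2.19 (limma adjusted p = 0.0707), and Axl the highest, 0.21 (limma adjusted p = 0.540). The median over the 7 genes was -1.36, beside -0.01 over all tested genes. Cd163 reached 10 normalised counts in WT libraries only. Vcam1, Slc40a1, C1qb and C1qc reached it in every WT library but not in every NA library. These genes met the filter by their WT values alone, so the filter itself favours a negative median here. The median and the calls of Slc40a1 and Cd163, with their share of the list, are therefore no separate evidence of a fall.

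Of 8 markers of macrophages as a cell type, 4 were tested and 1, Cd163, passed. It was lower in NA MPPs, as were 7.87% of all tested genes, and it met the filter by its WT values alone. Of the 8, 6 are also among the red pulp macrophage genes above, so the lists are not separate evidence. Summed over 8 markers (Adgre1, Csf1r, Cd68, C1qa, C1qb, Vcam1, Cd163 and Mertk), the level was 61.1 to 95.2 normalised counts in NA MPPs and 133 to 153 in WT MPPs. The sum over the 14 red pulp macrophage genes, most of which came from the abundant Trf and Axl, overlapped, at 438, 513, 746 and 510 in NA1 to NA4 and 621, 662, 498 and 641 in WT1 to WT4. Cd68, C1qb and Vcam1 did not pass (limma adjusted p = 0.120, 0.128 and 0.0707). No marker was at 0 in all libraries, but Adgre1 did not exceed 6.80 and Csf1r 12.4 normalised counts in any library. Mertk went the other way, at 18.7, 0, 11.1 and 4.72 normalised counts in NA1 to NA4 and at most 1.14 in a WT library. Single markers of other cell types were also lower in NA MPPs, beside 7.87% of all tested genes. They were the globin gene Hbb-bt (-1.99, limma adjusted p = 6.79e-05), the endothelial and stem cell receptor gene Tek (-0.91, limma adjusted p = 0.0128) and the T cell kinase gene Lck (-0.64, limma adjusted p = 0.0370). Of 3 endothelial genes tested, Pecam1 (0.39) and Emcn (0.20) went the other way. Of 4 T and NK cell genes tested, Klrb1c (1.02) and Nkg7 (0.16) did so, and Cd4 was at -1.55. None of these 5 passed, and Klrb1c met the filter by its NA values alone. Alas2, Cdh5, Cd3e and Cd3g of the same lists were at 0 in all libraries. The part of such cells in the Spic difference was not tested, and in pooled cells fewer cells of a type and less RNA per cell cannot be told apart.

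**Figure D3:**
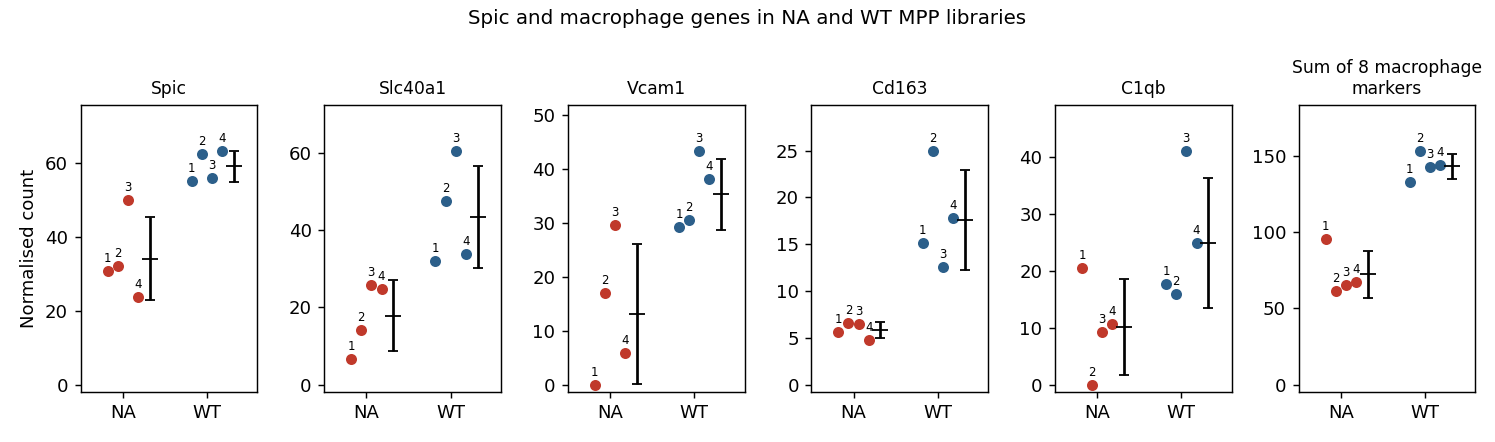
Normalised counts (y axis, a separate scale for each panel) of Spic, of 4 macrophage genes and of the sum of 8 macrophage markers in NA (red) and WT (blue) MPP libraries. Points are libraries with their number, and bars are the mean and SD of 4. The sum lies between 61.1 and 95.2 in NA and between 133 and 153 in WT MPPs, and Spic is lower in all 4 NA libraries. The 4 macrophage genes shown all have lower means in NA MPPs. Axl, Trf and Mertk, with higher means in NA MPPs, are not shown, nor is the overlapping sum over the 14 red pulp macrophage genes.

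Genes known to be controlled by PU.1 were then examined, since Spi1 itself did not pass the test. Of 22 such genes 16 were tested, none was higher and 4 were lower in NA MPPs, a share of tested genes to be read beside the 7.87% lower over all genes. Ncf1, a subunit of the phagocyte NADPH oxidase, was at 51.3, 53.6, 40.6 and 37.8 normalised counts in NA1 to NA4 and 132, 120.0, 123 and 142 in WT1 to WT4. Its groups were far apart, with a log2 difference of -1.49 (standard error 0.198, limma adjusted p = 0.000209), and it passed without the fourth libraries at -1.36 (limma adjusted p = 0.0116). Ncf4, another subunit, did not pass (-0.43, limma adjusted p = 0.105). The other 3 were the granule protein genes Mpo (-1.50, limma adjusted p = 0.0422) and Prtn3 (-0.41, limma adjusted p = 0.0181) and the signalling adaptor Tyrobp (-1.10, limma adjusted p = 0.0292), and none of them passed without the fourth libraries (0.135, 0.0867 and 0.127). Prtn3 fell from 2028 ± 292 to 1523 ± 154 normalised counts (SD, n = 4 per group), while Mpo was low in both groups, at 37.0 ± 14.6 in WT and 13.2 ± 7.83 in NA MPPs (SD, n = 4 per group). Of the receptors, Flt3 (0.07, limma adjusted p = 0.554), Csf3r (-0.36, limma adjusted p = 0.111) and Csf2ra (-0.47, limma adjusted p = 0.136) did not pass, Csf1r was under the filter, and the highest log2 difference was that of Tlr4 (0.41, limma adjusted p = 0.219). Elane was listed at 0 in every library. The median over the 16 genes was -0.23. Mpo met the filter by its WT values alone. Of neutrophil markers, S100a9 was at 158 and S100a8 at 64.9 normalised counts in WT3, and at most 18.5 and 3.76 in an NA library. Ly6g and Retnlg were at 0 in all libraries. WT3 was also the highest library for Mpo (52.4) and Tyrobp (141), but not for Prtn3 or Ncf1. The part of neutrophil transcripts in these differences was not tested.

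Among partners and antagonists of ETS factors, 4 of 17 tested genes were higher and 3 lower in NA MPPs, beside 10.1% higher and 7.87% lower over all tested genes. Among those lower were Irf8, which binds DNA together with PU.1, at 23.7 ± 7.47 against 48.9 ± 8.61 normalised counts (SD, n = 4 in each group, a log2 difference of -1.06, limma adjusted p = 0.0335) and Cebpa, which acts with PU.1 in granulocyte and monocyte precursors (-1.09, limma adjusted p = 0.0324). Higher were Gfi1, which can bind and restrain PU.1, at 505 ± 18.4 against 331 ± 23.8 (SD, n = 4 in each group, a log2 difference of 0.61, limma adjusted p = 0.00102), Gata2, another antagonist (0.33, limma adjusted p = 0.0275), Cbfb, the partner of Runx1 (0.50, limma adjusted p = 0.0259), and the corepressor Ncor1 (0.30, limma adjusted p = 0.0317). These 6 genes had groups that did not overlap. Without the fourth libraries Gfi1 alone passed (0.58, limma adjusted p = 0.0317), and the other 5 named kept their sign with adjusted p from 0.117 to 0.226. The largest value was that of Sin3a at 0.62, with a low value of 70.6 normalised counts in WT3 (limma adjusted p = 0.121). Runx1 (0.13, limma adjusted p = 0.457), Bach1, a repressor of Spic that haem inactivates (0.52, limma adjusted p = 0.0850), and the GABP subunits Gabpb1 (-0.01, limma adjusted p = 0.951) and Gabpb2 (0.04, limma adjusted p = 0.867) did not pass, and Gata1 was under the filter. The median over the list was 0.04.

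**Figure D4:**
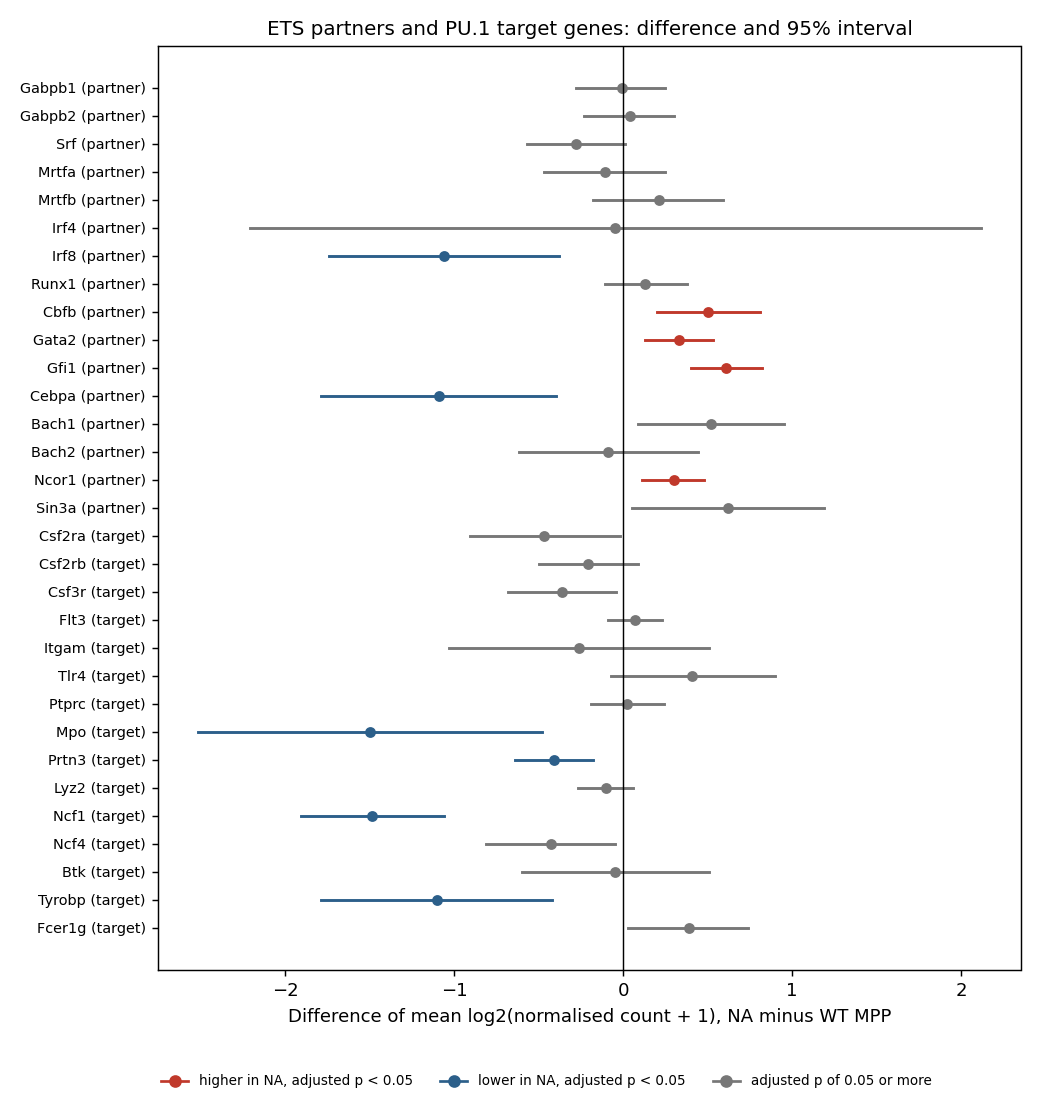
Difference of mean log2(normalised count + 1) between NA and WT MPPs (x axis) with limma 95% intervals for 16 partners and antagonists of ETS factors and 15 genes controlled by PU.1. Red genes were higher and blue genes lower at an adjusted p below 0.05. All 4 coloured PU.1 target genes lie left of 0, and the 6 coloured partners lie on both sides.

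Of 14 genes that GABP controls, all tested, 2 were higher and 1 was lower in NA MPPs, with a median of -0.04. This share is near the 17.9% called over all tested genes and is no result about the list. Crebbp, the acetyltransferase CBP, was at 93.4, 135, 103 and 148 normalised counts in NA1 to NA4 and 45.3, 51.0, 25.1 and 41.7 in WT1 to WT4, a log2 difference of 1.55 (limma adjusted p = 0.0011, and 0.0261 without the fourth libraries). Foxo3, a stem cell maintenance factor, rose by 0.40 (limma adjusted p = 0.00972) and cytochrome c (Cycs) fell by 0.39 on the log2 scale (limma adjusted p = 0.0292), with no call for either without the fourth libraries (0.144 and 0.255). Of genes that ternary complex factors and serum response factor control, 7 of 9 tested were higher in NA MPPs, beside 10.1% over all tested genes. The list was chosen with earlier results of these data known, so this share is a description and not a test. The 7 ran from Mcl1 at 0.97 and Junb at 0.99 to Fos at 3.37, with Ier2, Egr2, Egr1 and Fosb between them. The median over the 9 was 1.42. Egr2 met the filter by its NA values alone, since of the WT libraries only WT2 reached 10 normalised counts. Of the 7 genes, 5 passed without the fourth libraries, all but Egr2 and Junb. Serum response factor itself was the lowest of the list at -0.28 (limma adjusted p = 0.167), and of the ternary complex factors Elk4 was at 0.17 (limma adjusted p = 0.279), beside Elk1 and Elk3 given above.

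Among genes whose values over the 8 libraries were most like those of Spi1 by Pearson r on the log2 scale were Lamtor2 (0.945) and Mrpl23 (0.938). Those most like Spic were Rpl23 (0.989), Ubl5 (0.988) and Mrps27 (0.977). These are descriptions over 8 libraries that share the group difference and the depth classes, and were not tested.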

How the data were processed

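Sequencing libraries were made from amplified cDNA of sorted 1000-cell aliquots. The authors quantified genes with RSEM and normalised and tested them with DESeq2, and their processing notes also name bcl2fastq and mm10. Versions, annotation and strand use are not given in the sources used here. The deposited values are a normalised signal: RSEM gene counts divided by a factor for each library, although the table is named as raw. One read was worth 0.888 to 1.18 in the low values, depending on the library, and 98.5% to 98.8% of values above 0.5 came out whole on that scale, within 0.01 of a read up to 50 reads and 0.02% of the value above. Dividing by the step gave estimated reads, used for depth and for the limit of 3 reads. Amplified cDNA carries no molecular identifiers, so such limits cover counting error only.

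GENCODE M21 (build GRCm38, as mm10) named 32916 of 37980 rows. Levels per kilobase used the median length of coding transcripts in GENCODE M21. limma 3.58.1 in R 4.3.3 was run with a mean-variance trend, without covariates, on log2(normalised count + 1). The added 1 shrinks changes of low genes. The threshold was an adjusted p of 0.05. The fit was first tested on simulated data. Single genes under the filter were tested by exact permutation over 70 assignments, where the smallest possible p is 0.0286. In all, 21 alternative fits were run. Count-based tests on recovered reads were planned but not used, because fractional values remained. Members and gene lists were chosen with earlier results of these data known. The text names all 10 members and, of each other list, genes past the threshold and the highest and lowest, except a few genes that are not reported here. No near-identical copy of a member transcript (95% identity over at least 50% of it) was found in GENCODE M21.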

Additional observations from a re-analysis of the deposited data

Results flagged for a closer look

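In 5 of the 72 sets of 4 values, 1 library stood off from the rest by more than 0.829 of the range. This is Dixon's 95% limit and is passed by chance in about 1 set in 20. The sets were each member, and each called gene of the other ETS, partner, target and red pulp macrophage lists, in each group. Spi1 had 232 normalised counts in WT2 and 137 to 152 in WT1, WT3 and WT4. Elf1 had 386 in NA1 and 516 to 532 in NA2, NA3 and NA4. Etv6 had 1935 in WT2 and 1624 to 1634 elsewhere in WT MPPs, while Elk3 had 605 in WT3 and 442 to 455 elsewhere. Gfi1 had 533 in NA4 and 494 to 497 in NA1, NA2 and NA3. Spi1 and Etv6 share the library WT2, which was highest of its group for 32.2% of all tested genes. The log2 difference of Spi1 was -0.17 with WT2 and -0.0072 without it, that of Elf1 was 0.29 with NA1 and 0.40 without it, and neither passed the test either way.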

How the results depend on the processing

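The number of members called was 1 in the test as reported and 0 with no low-count filter, with genes kept only from a mean of 50 (which left out Spic), without the fourth libraries, with the replicate block and with depth class as a term. Across the fits that left out 1 library it ran from 0 to 1, and the member called without NA1 was Ets1 in place of Spic. Spic kept its sign in all 20 alternatives that tested it (-1.02 to -0.64, limma adjusted p from 0.0155 to 0.335) and lost its call in 11. Of all genes, 2053 were called, 515 without the fourth libraries, all of which were among the 2053, and from 1106 (without NA4) to 2141 across the fits that left out 1 library (1294 without WT4). Signs turned only for members near 0 that never passed: Etv6 at -0.06 and Elk3 at -0.02 by total-count scaling, Elk3 at -0.07 without the fourth libraries, and Ets2 at 0.0099 with the GC trend removed. Across the fits that left out 1 library, Etv6 ran from -0.02 to 0.07, Elk3 from -0.03 to 0.18 and Ets2 from -0.19 to 0.14. The Spib difference in mean log2(normalised count + 1) was -0.87 as reported and ran from -1.16 (without WT3, whose value was 0; exact permutation p = 0.0286) to -0.67 in the same fits, and was -0.86 without the fourth libraries (exact permutation p = 0.400). The cause of these changes was not tested. Counts for the other gene lists under these alternatives were added after the data were seen. Without the fourth libraries the PU.1 target genes gave 1 call in place of 4, the partners 1 in place of 7, the other ETS genes 1 in place of 3 and the red pulp macrophage genes 0 in place of 2. Of these last 2, Cd163 could not be tested there because of the filter.

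The test as reported did not treat libraries of the same number as pairs, and the values do not settle whether they are. Deviations from the group means correlated at 0.15, 0.000524, 0.0034 and 0.237 for numbers 1 to 4 over 9000 genes. In all, 4 of 8 libraries correlated best with their own number. With the replicate block 2004 genes were called, 1836 of them shared with the test as reported, and Spic was at -0.82 (limma adjusted p = 0.0675). Count-based tests on recovered reads (edgeR and DESeq2) were not run. Depth limits Spib, with at most 2 estimated reads in a library, and Spic, with at most 71.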
